A study of Arabidopsis thaliana with 32 samples.

Results

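Transposable elements are DNA sequences that can move or copy themselves within a genome, and plants keep most of them silent by DNA methylation and small RNAs. Endosperm is the tissue that feeds the embryo. It inherits 2 maternal genomes and 1 paternal genome, and in Arabidopsis thaliana its maternal genome is demethylated at many transposable elements before fertilisation by the DNA glycosylase DEMETER. Endosperm is also where most imprinted genes of this species are known, that is, genes whose maternal and paternal copies are expressed unequally. The loci described here are the annotated transposable element loci (TE loci) that had at least 1 RNA read assignable to the Col or the C24 allele in hybrid seeds. There were 3981 of them among 23316 nuclear features with such reads, the other 19335 being genes.

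Members were found by their identifier (the prefix of a chromosome followed by TE and digits) in 16 hybrid libraries. At TE loci the main allele tests in standard hybrid endosperm covered only the 242 with 10 or more allele reads in all 4 libraries. Other comparisons used their own minimum or filter. Some loci named for them, or for lying just under the minimum, are outside the 242. The files give an identifier and 2 read counts per locus; family, position and distance to genes were not used here.

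RNA had been taken from endosperm and embryo that were cut out of seeds by laser capture. Standard hybrids were the reciprocal crosses between the accessions Col and C24, written Col x C24 and C24 x Col with the seed parent first, and each cross had 2 libraries per tissue. The other hybrids were made with cytonuclear swap (CNS) lines, which carry the nucleus of 1 accession in the cytoplasm of the other: organelle reads showed Col cytoplasm in Col(C24), whose nucleus is C24, and the reverse in C24(Col). Col(C24) x Col had 2 libraries per tissue. The opposite direction had 1 library per tissue of Col x Col(C24), as replicate 1, and 1 of C24(Col) x Col(C24), as replicate 2, which differ in cytoplasm. All seeds compared here are hybrid for the nucleus, and no selfed library has allele reads. Seed age is not given in the labels, nor whether the 2 libraries of a group came from separate plants, so the spread that p-values rest on is that between these samples and may be technical.

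Nuclear allele reads numbered 1444047 to 6243030 per library. Levels are given as counts scaled to a common library size, in CPM. After a mean level or share, ± gives the SD over libraries. After a log2 difference or term it gives a standard error derived from the test statistic of the fit. Endosperm markers summed to 1500 to 1925 CPM in standard endosperm and 69.1 to 110.5 CPM in embryo, and embryo markers to 218.3 to 327.7 and 992.6 to 1137 CPM, so both tissues carried the markers of their label. Seed coat is maternal tissue. Its 12 markers, none at 0 in every library, summed to 227.4 to 518.4 CPM in standard endosperm and 34.6 to 52.9 CPM in embryo, and 99.8% of their allele reads in standard endosperm were maternal. Libraries also differed in how often a feature with 10 or more reads showed only 1 allele: for genes this share was 3.28% to 14.5% in standard endosperm, highest in Col x C24 replicate 2, and reached 22.0% in CNS endosperm.

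TE reads were a larger part of the endosperm libraries than of the embryo libraries. In standard endosperm they made up 1.58% and 1.68% of nuclear allele reads in Col x C24 against 2.37% and 2.26% in C24 x Col. In standard embryo the values were 0.698% and 0.714% in Col x C24 against 0.774% and 0.821% in C24 x Col. The tissues did not overlap, with means of 1.97% ± 0.403 and 0.752% ± 0.0568 (SD, n = 4 libraries each). CNS endosperm held 1.82% ± 0.429 and CNS embryo 0.771% ± 0.0720 (n = 4 each), again without overlap. Within standard endosperm both C24 x Col libraries lay above both Col x C24 libraries, whereas the directions of the CNS crosses overlapped.

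**Figure D1:**
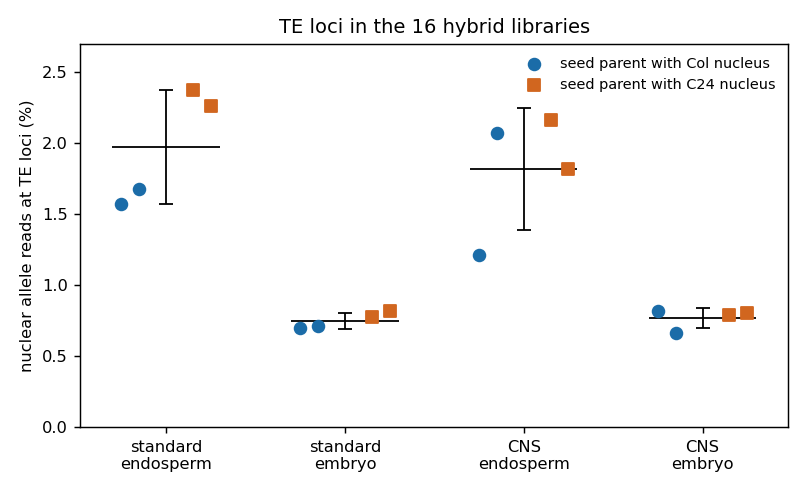
Share of nuclear allele reads at TE loci (vertical axis, percent) in each of the 16 hybrid libraries, grouped by set and tissue. Points are libraries, coloured by the nucleus of the seed parent, and bars give the mean and SD of 4 libraries. Every endosperm library, from 1.21% to 2.37%, lies above every embryo library, from 0.665% to 0.821%.

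More loci were also listed in endosperm: 906 to 1744 per library in the standard crosses against 664 to 838 in embryo. Over all 16 libraries 2003 loci had reads in endosperm only, 653 in embryo only and 1325 in both tissues, and 162 were listed in every library. Of the endosperm-only loci 5 had 10 or more reads in every endosperm library, and 0 of the embryo-only loci had as many in every embryo library. Most loci were thinly covered, since 1500 appeared in a single library and 553 had a single read in all. By identifier 897 lie on chromosome 1, 831 on chromosome 2, 804 on chromosome 3, 583 on chromosome 4 and 866 on chromosome 5.

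The 242 well-covered loci held 82.2% of the standard endosperm TE reads and had 55 to 11944 reads each over the 4 libraries, with a median of 317. The remaining 2347 loci listed in those libraries fell under the minimum. Just inside it were AT3TE26870, with 10 and 15 reads in Col x C24 against 13 and 17 in C24 x Col, AT2TE07145 with 23, 12, 20 and 10 in the same order, and AT1TE43145 with 20, 15, 25 and 10. Just outside were AT5TE91765 (9, 52, 74 and 212 reads), AT2TE07705 (11, 9, 58 and 170) and AT2TE86100 (13, 9, 54 and 128), whose reads in C24 x Col exceeded those in Col x C24. A minimum in every library can therefore leave out loci with few reads in a single library or direction of the cross. Depth differed too, with 1444047 and 2641144 nuclear allele reads in Col x C24 against 2085659 and 4889897 in C24 x Col.

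The first comparison asked which TE loci differ between endosperm and embryo in total allele reads. Of 600 TE loci that passed a filter on low counts, 396 (66.0%) were called by edgeR's quasi-likelihood test at a Benjamini-Hochberg adjusted p under 0.05, 346 higher in endosperm (57.7%) and 50 higher in embryo (8.33%). Over all 13340 features tested 56.1% were called, 27.3% higher in endosperm and 28.8% higher in embryo. The median log2 difference was 3.93 over the TE loci and -0.12 over all features. A locus could pass the filter through endosperm alone, and 121 of the 600 had no embryo read while 2 had no endosperm read, so these counts describe the loci that passed and not all TE loci. Size factors of DESeq2 moved the median over all features to -0.01.

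Loci highest in endosperm relative to embryo had few or no embryo reads. AT2TE01630 had 19 and 82 reads in Col x C24 endosperm, 113 and 195 in C24 x Col endosperm, and none in the 4 embryo libraries. Its level was 35.5 ± 17.3 CPM in endosperm (n = 4), at least 163-fold higher than the 3 reads over the 4 embryo libraries that are taken as the floor (adjusted p = 7.39e-06). AT3TE70010 (27.5 ± 16.8 CPM), AT2TE35730 (22.4 ± 10.6 CPM), AT2TE22680 (21.8 ± 15.3 CPM), AT1TE26115 (18.3 ± 5.07 CPM), AT2TE05980 (16.9 ± 7.09 CPM) and AT1TE80625 (15.0 ± 7.59 CPM) likewise had no embryo read. These 6 were at least 127-, 103-, 100-, 84.1-, 77.8- and 68.9-fold higher in endosperm. AT2TE27505 had a single embryo read and 46.4 ± 30.2 CPM in endosperm (log2 difference 8.96 ± 0.62, adjusted p = 1.14e-06).

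Fewer loci went the other way. AT5TE83620 had 83 and 19 reads in Col x C24 embryo against 78 and 22 in C24 x Col embryo, with none in the 4 endosperm libraries, and was at least 62.8-fold higher in embryo (adjusted p = 0.000772). AT1TE00220, also without an endosperm read, was at 4.25 ± 1.88 CPM in embryo and at least 15.7-fold higher there (adjusted p = 0.00291). AT4TE46265 had 18.3 ± 12.2 CPM in embryo but 0.120 ± 0.241 CPM in endosperm, a log2 difference of -7.63 ± 1.09 (adjusted p = 0.000197). AT2TE68100 and AT2TE68105 are consecutive in the annotation, whose identifiers run in steps of 5 along a chromosome. They reached 13.1 ± 3.29 and 15.0 ± 7.90 CPM in embryo but 0.161 ± 0.322 and 0.350 ± 0.307 CPM in endosperm (adjusted p = 0.000193 and 0.000158). AT1TE99370 (6.42 ± 1.18 CPM in embryo), AT4TE00955 (18.7 ± 5.68 CPM) and AT5TE29800 (18 ± 2.88 CPM) stayed under 1 CPM on average in endosperm.

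**Figure D2:**
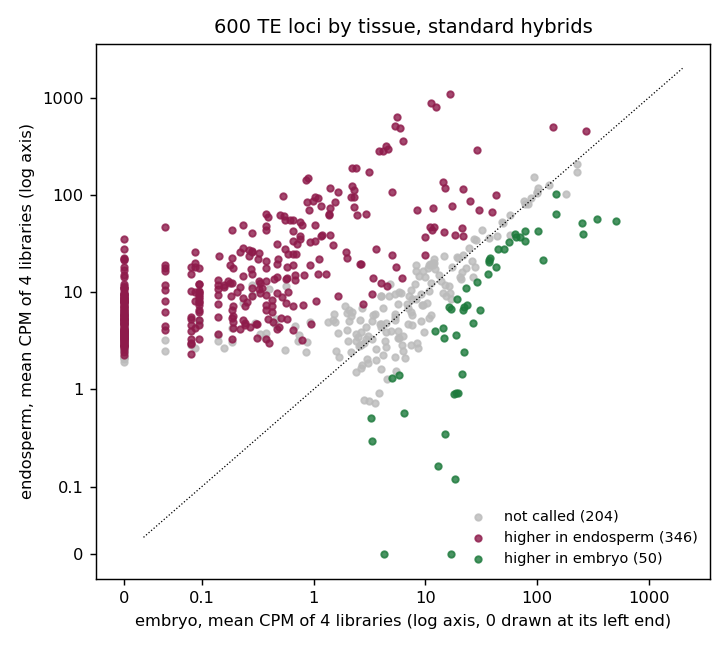
Mean CPM of allele reads in 4 standard endosperm libraries (vertical axis, log) against 4 standard embryo libraries (horizontal axis, log, with 0 drawn at the end of each axis) for the 600 TE loci tested. Colour gives the call by edgeR: 346 loci higher in endosperm, 50 higher in embryo and 204 not called. A cloud of endosperm loci lies far above the dotted line of equal levels, and 121 of the 600 loci sit at 0 on the embryo axis.

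The CNS libraries were not used for those calls. Relative to each library's nuclear allele reads, every CNS endosperm library lay above every CNS embryo library for 224 of the 346 loci called higher in standard endosperm, and below for 0. The background for lying above was 22.5% of all features tested and 243 of the 600 TE loci tested. For 24 of the 50 loci called higher in standard embryo, every CNS endosperm library lay below every CNS embryo library, and for 0 above. The background for lying below was 22.3% of all features and 32 of the 600 TE loci.

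The loci with the most endosperm reads were mostly endosperm loci in this sense. AT2TE63800, at the top, had 1522 and 2517 reads in Col x C24 endosperm against 2358 and 5547 in C24 x Col endosperm, but 18 to 122 in embryo. Its endosperm level of 1096 ± 86.0 CPM compared with 16.4 ± 11.7 CPM in embryo (log2 difference 6.38 ± 0.24, adjusted p = 4.99e-08). AT2TE48400 (876 ± 491 and 11.2 ± 8.87 CPM), AT5TE53605 (804 ± 104 and 12.4 ± 8.22 CPM), AT4TE51730 (511 ± 240 and 5.36 ± 5.82 CPM) and AT4TE54010 (489 ± 93.6 and 5.89 ± 4.00 CPM) showed the same order. AT2TE54200 was nearer to even, with 452 ± 122 CPM in endosperm beside 271 ± 96.8 CPM in embryo (log2 difference 0.71 ± 0.27, adjusted p = 0.041). AT1TE25675 stood at 493 ± 167 and 139 ± 27.5 CPM (1.82 ± 0.26, adjusted p = 0.000125). These are levels of reads that cover a difference between the accessions, and they depend on how many such differences a locus holds.

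At the summed level the maternal share of TE reads in endosperm was close to the 66.7% that 2 maternal genomes among 3 would give. It was 72.0% and 73.2% in Col x C24 against 62.7% and 62.8% in C24 x Col, beside 69.2% and 69.2%, and 63.4% and 64.1%, over nuclear genes. The mean was 67.7% ± 5.71 in standard endosperm and 67.7% ± 6.62 in CNS endosperm (n = 4 each), and 52.8% ± 4.09 and 51.7% ± 6.91 in the embryos. Both directions lay on the Col side of the dose, and a mapping advantage of the reference accession, taken to be Col, cannot be told apart from expression.

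Single loci were spread more widely than this sum. Over the 242 loci the mean maternal share in standard endosperm ranged from 35.3% to 100%, with quartiles of 57.9%, 64.6% and 73.6%. Over the 8271 genes with 10 reads in all 4 libraries the quartiles were 62.8%, 66.4% and 69.9%. Of the TE loci 18 (7.44%) were over 90% maternal in all 4 libraries, against 83 genes (1.00%), and 1 (0.413%) was under 50% in all 4, against 99 genes (1.2%). The median depends on the loci taken. Over all TE loci with 10 or more reads in a given library it was 77.0% and 83.1% in Col x C24. In C24 x Col it was 68.2% and 70.3%. Gene medians taken in this way were 69.2% and 70.0%, and 65.1% and 65.7%. In CNS endosperm these medians were 68.0% to 87.6% for TE loci and 63.2% to 69.9% for genes. The classes were not matched for depth, and no test was made on these shares.

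**Figure D3:**
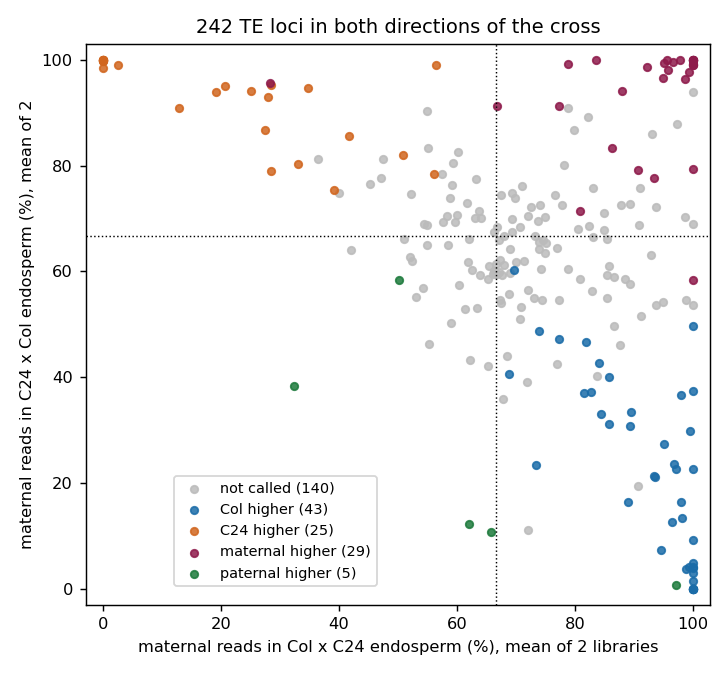
Maternal share of allele reads (percent, mean of 2 libraries) in Col x C24 endosperm (horizontal axis) and C24 x Col endosperm (vertical axis) for 242 TE loci. Dotted lines mark 66.7%, and a locus called in both tests takes the colour of its parental call. Of the 29 maternal loci 27 lie above both lines, the exceptions being AT5TE62005 at the upper left and AT3TE51710 at the right. All 43 loci called only towards Col lie at the lower right, all 25 called only towards C24 at the upper left, and the 5 paternal loci lie low on at least 1 axis.

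Whether the parental origin of an allele matters was tested with the accession of the allele as a separate term, relative to the 2:1 dose. Of the 242 loci 34 (14.0%) were called by edgeR, 29 with more maternal reads (12%) and 5 with more paternal reads (2.07%). Over all 8513 features tested 4.42% were called, 2.37% maternal and 2.04% paternal. The maternal share of TE loci called therefore stood above the background, and the paternal share next to it. The count depended on the libraries: it was 13 without C24 x Col replicate 1, 8 without C24 x Col replicate 2, 77 without Col x C24 replicate 1 and 42 without Col x C24 replicate 2, and all of the 13 and of the 8 were among the 34. A fit without a library applies the minimum to those that remain and so tests another set of loci. Its count has no background beside it here. Seed coat markers, given above, were present in the standard endosperm libraries with almost only maternal reads, and their part in the maternal calls was not tested.

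Of the 242 loci 6 had no paternal read in any of the 4 libraries. AT3TE54360 had 37 and 121 Col reads in Col x C24 against 62 and 176 C24 reads in C24 x Col. These were 396 maternal reads and no paternal read, which allows a paternal share of up to 0.758%. Maternal reads were thus at least 132-fold more frequent (adjusted p = 4.51e-05, relative to the dose). AT3TE32310 had 72, 17, 15 and 179 maternal reads in replicates 1 and 2 of Col x C24 and then of C24 x Col, and was at least 94.3-fold higher from the mother (adjusted p = 0.000372). The allele that was read changed completely with the direction of the cross at both loci. AT1TE75405 (184 reads), AT1TE46330 (177 reads) and AT2TE24250 (116 reads) were at least 61.3-, 59.0- and 38.7-fold higher from the mother (adjusted p = 0.00192, 0.00233 and 0.0177). The sixth, AT2TE07145, had 65 reads, and its adjusted p of 0.0624 did not pass. DESeq2 called none of the first 5, with adjusted p = 0.106 for AT3TE54360, 0.249 for AT3TE32310, 0.29 for AT1TE75405, 0.274 for AT1TE46330 and 0.424 for AT2TE24250. In edgeR all 5 calls were lost without C24 x Col replicate 2, and the last 3 also without its replicate 1. The folds from the mother are ratios of reads, without the 2:1 dose against which the adjusted p-values were tested. Their floors cover counting error only.

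At other maternal loci a few paternal reads were present. Reads of both alleles are given here as Col to C24 reads, replicate 1 and then replicate 2. AT3TE54275 had Col to C24 reads of 20 to 0 and 89 to 0 in Col x C24 against 1 to 51 and 0 to 141 in C24 x Col, a maternal share of 99.5% ± 0.962 (n = 4; log2 difference from the dose 7.50 ± 0.93, adjusted p = 0.000265). AT5TE50070 was 99.6% ± 0.736 maternal (6.64 ± 1.04, adjusted p = 0.00181), AT5TE36530 99.5% ± 0.909 (6.39 ± 1.11, adjusted p = 0.00422) and AT4TE02605 99.0% ± 2.08 (5.59 ± 1.25, adjusted p = 0.0232). AT5TE21175 was 97.8% ± 4.35 maternal (5.59 ± 1.08, adjusted p = 0.00908), and AT2TE22680, an endosperm locus without an embryo read, 98.1% ± 3.20 (5.27 ± 0.80, adjusted p = 0.000946). These 6 loci had modest depth, and 10 to 141 maternal reads per library.

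Deeper loci showed that a maternal preference need not be complete. AT1TE72850 had Col to C24 reads of 108 to 10 and 259 to 20 in Col x C24 against 10 to 867 and 44 to 2651 in C24 x Col. Its maternal share was 95.4% ± 3.76 (log2 difference 3.83 ± 0.17, adjusted p = 1.04e-08), and it had more reads when C24 was the mother. AT1TE78500 had Col to C24 reads of 194 to 26 and 756 to 104 in Col x C24 against 26 to 564 and 118 to 1481 in C24 x Col, a maternal share of 91.1% ± 3.71 (2.41 ± 0.15, adjusted p = 4.62e-07). All 4 libraries of both loci lay above 87%. AT4TE51730 deviated less, with 76.2% ± 5.74 maternal reads (0.70 ± 0.10, adjusted p = 0.000601), and AT5TE62005 had a small maternal term (0.52 ± 0.13, adjusted p = 0.0439) beside a far larger preference for C24 (Col over C24 log2 -2.87 ± 0.13, adjusted p = 1.89e-08). Among the most abundant loci AT2TE63800, AT2TE48400, AT2TE54200, AT4TE54010, AT5TE53605 and AT1TE25675 were not called, and their maternal terms lay between -0.22 and 0.06 on the log2 scale.

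The neighbours AT3TE54360 and AT3TE54365 differed in kind. AT3TE54365 had Col to C24 reads of 53 to 0 and 130 to 0 in Col x C24 against 38 to 120 and 69 to 332 in C24 x Col. Its C24 allele was thus read only through the mother, whereas its Col allele was read through both parents (maternal term 5.26 ± 0.57, adjusted p = 9.37e-05; Col over C24 4.28 ± 0.66, adjusted p = 0.000941). AT3TE51710 repeated this form, with Col to C24 reads of 155 to 0 and 322 to 0 in Col x C24 against 64 to 84 and 182 to 272 in C24 x Col (maternal term 5.21 ± 0.50, adjusted p = 3.13e-05; Col over C24 5.71 ± 0.47, adjusted p = 6.36e-06). AT4TE10535 and AT4TE10540 were the other consecutive pair in which both loci were called maternal. Of 14 consecutive pairs among the 242 loci, formed by 27 loci, 10 had maternal terms of the same sign. No background was computed for this count, and it was not tested.

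The 5 paternal loci kept reads from both parents. AT5TE81110 was the single locus with under 50% maternal reads in all 4 libraries, with Col to C24 reads of 18 to 70 and 47 to 59 in Col x C24 against 106 to 74 and 193 to 106 in C24 x Col. Its maternal share was 35.3% ± 10.6 against 66.7% by dose (log2 difference -1.88 ± 0.27, adjusted p = 0.00066), without a difference between accessions that passed the test (-0.18 ± 0.27, adjusted p = 0.747). AT1TE74615 had Col to C24 reads of 154 to 139 and 346 to 376 in Col x C24 against 288 to 408 and 857 to 1196 in C24 x Col. That is 54.3% ± 5.10 maternal, a small shift (-0.76 ± 0.11, adjusted p = 0.000535).

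The other 3 paternal loci also favoured Col. AT1TE57495 had Col to C24 reads of 1307 to 37 and 1931 to 61 in Col x C24 against 868 to 3 and 1645 to 16 in C24 x Col. Nearly all its reads were Col (Col over C24 6.05 ± 0.15, adjusted p = 7.59e-11), and the minor C24 reads were more frequent when C24 was the father (maternal term -2.0 ± 0.17, adjusted p = 4.02e-06). AT2TE19930 had Col to C24 reads of 47 to 22 and 128 to 74 in Col x C24 against 54 to 7 and 244 to 27 in C24 x Col (maternal term -2.08 ± 0.26, adjusted p = 0.000158; Col over C24 2.00 ± 0.25, adjusted p = 0.00014). AT4TE84980 followed it, with terms of -1.97 ± 0.23 (adjusted p = 8.32e-05) and 1.84 ± 0.22 (adjusted p = 8.57e-05). AT5TE91765, outside the minimum by 1 read, had Col to C24 reads of 2 to 7 and 5 to 47 in Col x C24 against 74 to 0 and 205 to 7 in C24 x Col, so that 8.79% ± 9.81 of its reads were maternal.

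**Figure D4:**
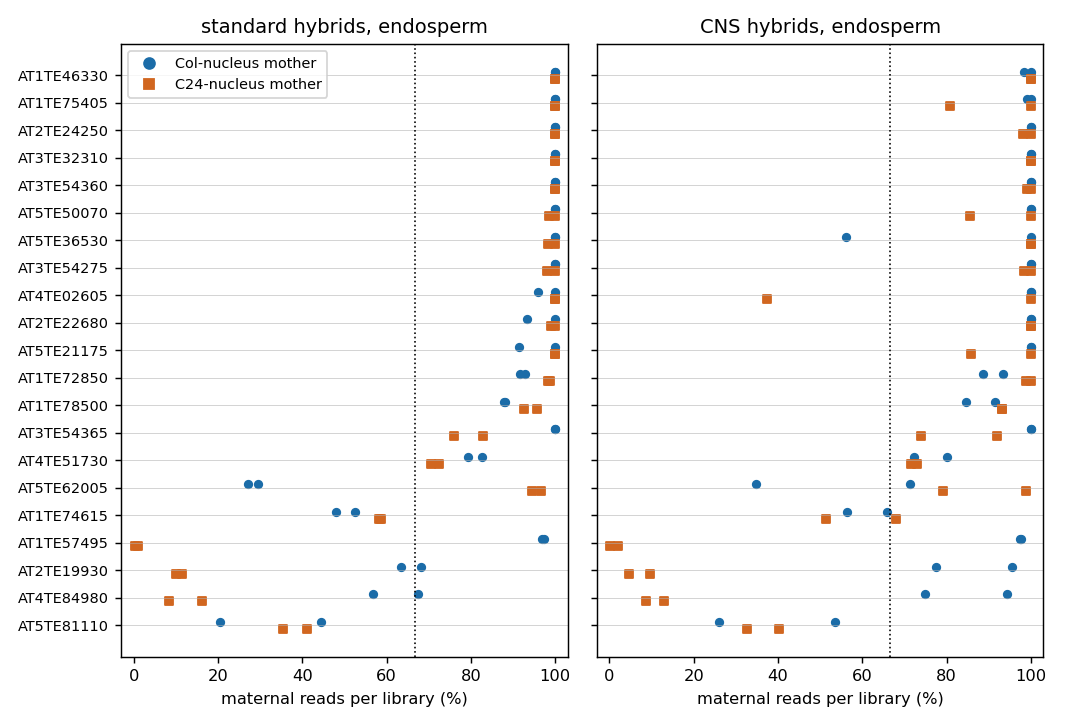
Maternal share of allele reads in each endosperm library (horizontal axis, percent) of the standard hybrids and the CNS hybrids, for 21 TE loci: the 12 largest maternal calls, 4 abundant maternal loci and the 5 paternal loci. Points are single libraries, coloured by the nucleus of the mother, and the dotted line marks 66.7%. The 12 loci drawn from AT1TE46330 down to AT1TE72850 lie above 90% in every standard library, while single CNS libraries of AT5TE36530 and AT4TE02605 fall below the line.

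CNS endosperm gave the same comparison in libraries that share none with the standard set. Of 295 TE loci tested 21 (7.12%) were called, 17 maternal and 4 paternal, against 2.53% of all 9514 features (1.25% maternal and 1.28% paternal). Of the 29 loci called maternal in the standard hybrids 26 could be tested in CNS endosperm, all 26 had a maternal term of the same sign, and 13 were called again, which is 44.8% of the standard calls and 76.5% of the CNS calls. The background for sign was 147 of the 213 TE loci tested in both sets and 4521 of 7913 genes. All 5 paternal loci kept their sign and 2 were called, AT1TE57495 (not by DESeq2, adjusted p = 0.211) and AT5TE81110. The CNS count was 12 without Col(C24) x Col replicate 1, 6 without its replicate 2 and 10 without Col x Col(C24) replicate 1.

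Reads in CNS endosperm are given in the order Col x Col(C24), C24(Col) x Col(C24), then Col(C24) x Col replicates 1 and 2. AT3TE54360 had 180, 48, 114 and 39 maternal reads there and 0, 0, 1 and 0 paternal ones (adjusted p = 0.00517). AT3TE32310 had 129, 24, 95 and 70 maternal reads and again no paternal read (adjusted p = 0.0163, and 0.147 by DESeq2). AT1TE72850 was 95.2% ± 5.22 maternal (log2 difference 4.35 ± 0.42, adjusted p = 6.46e-05) and AT1TE78500 90.6% ± 4.10 (2.34 ± 0.21, adjusted p = 3.25e-05), so both stayed within 1 SD of their standard share. AT5TE81110 was 38.1% ± 11.7 maternal (-1.75 ± 0.30, adjusted p = 0.00615). Some loci were not called: AT4TE02605 had 10 Col and 6 C24 reads in Col(C24) x Col replicate 2, and AT5TE36530 had 18 Col and 14 C24 reads in Col x Col(C24). AT5TE91765, testable only in this set, was called paternal with 7.86% ± 14.3 maternal reads (-6.74 ± 1.04, adjusted p = 0.00403).

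In embryo, relative to equal dose, 1 of 161 TE loci tested (0.621%) was called for parental origin, against 1.04% of all 9815 features (0.988% maternal and 0.0509% paternal), and 10 had an unadjusted p under 0.05. DESeq2 called 0. The called locus was AT3TE51710, with Col to C24 reads of 404 to 0 and 435 to 0 in Col x C24 against 398 to 12 and 817 to 13 in C24 x Col (maternal term 3.17 ± 0.62, adjusted p = 0.0014). C24 reads were thus again found only when C24 was the mother, but they were a far smaller part than in endosperm. The call rests on 25 C24 reads and was lost without either C24 x Col library, where no locus was called. The strongly maternal endosperm loci could not be tested in embryo: AT3TE54360 had 13 embryo reads in all, all maternal, and AT1TE72850 had 11 in Col x C24 against 67 in C24 x Col, all maternal. Seed coat markers were present in embryo libraries too, with 98.8% maternal reads, and their part in these reads was not tested.

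The difference between the tissues was tested itself at 107 TE loci. It was called at 3 (2.80%), against 3.20% of all 7274 features (0.784% with the larger and 2.42% with the smaller term in endosperm), and at each the maternal term was smaller in endosperm. AT2TE19930 had no parental shift in embryo that passed the test, with Col to C24 reads of 812 to 418 and 1475 to 556 in Col x C24 against 635 to 307 and 2355 to 937 in C24 x Col (maternal term -0.01 ± 0.07), so endosperm and embryo differed by -2.10 ± 0.20 (adjusted p = 2.5e-06). AT5TE81110 was 53.0% ± 2.50 maternal in embryo (0.17 ± 0.11), a difference of -2.04 ± 0.27 (adjusted p = 7.67e-05). AT1TE88825 differed by -1.23 ± 0.33 (adjusted p = 0.0488), and with the replicate number as a block it no longer passed (adjusted p = 0.0684). Of these, AT2TE19930 and AT5TE81110 were also lower in endosperm in total reads (53.9 ± 20.9 against 509.5 ± 142 CPM, and 63.6 ± 18.4 against 149 ± 31.6 CPM).

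Accession was a more frequent difference than parental origin. In standard endosperm 81 of 242 TE loci (33.5%) were called between Col and C24 alleles, 49 with more Col reads (20.2%) and 32 with more C24 reads (13.2%). Over all features 13.4% were called, 9.56% towards Col and 3.86% towards C24. The count was 43 without C24 x Col replicate 1, 38 without C24 x Col replicate 2 and 141 without Col x C24 replicate 1. Here too, fits without a library tested other sets of loci, with no background given. In embryo 63 of 161 loci (39.1%) were called, 42 towards Col and 21 towards C24, against 17.7% of all features (13.5% and 4.16%), and DESeq2 called 41. Of the 49 Col calls in endosperm 19 could be tested in embryo, all 19 had the same sign and 17 were called. Of the 32 C24 calls 12 could be tested and 11 had the same sign, each of them called, with AT2TE52200 as the exception.

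Several loci gave reads from a single accession whichever parent carried it. In standard endosperm 6 loci had no C24 read and 5 no Col read, together 4.55% of the 242 loci against 0.339% of genes with the same minimum. In embryo 12.4% of 161 loci and 0.228% of genes were of this kind. TE loci and genes were not matched for depth, which affects how often an allele has no read, and these shares were not tested. AT2TE16945 had 209 and 375 Col reads in Col x C24 endosperm, 137 and 294 in C24 x Col endosperm, 1463 in embryo and 2286 in CNS endosperm, and no C24 read in any of these libraries. Its Col allele was at least 338-fold higher in standard endosperm (adjusted p = 1.39e-07). AT1TE58610 (733 Col reads, at least 244-fold, adjusted p = 4.93e-07), AT2TE52210 (185 reads, at least 61.7-fold, adjusted p = 0.000239), AT4TE21115 (161 reads, at least 53.7-fold, adjusted p = 0.00032) and AT1TE95555 (127 reads, at least 42.3-fold, adjusted p = 0.000879) also had no C24 read, in endosperm or in embryo. DESeq2 did not call the last 3 in endosperm (adjusted p = 0.07, 0.0691 and 0.0867). Embryo reads, all Col, numbered only 15 at AT1TE58610 and 5 at AT2TE52210, beside 158 at AT4TE21115 and 63 at AT1TE95555. A sequence missing from C24, a silent C24 allele and C24 reads that fail to map cannot be told apart here.

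Loci with a trace of the other allele stood next to these. AT2TE45280 had 256 Col reads and 1 C24 read in standard endosperm (Col over C24 8.19 ± 0.85, adjusted p = 4.59e-05), AT4TE18385 430 and 5 (7.98 ± 0.78, adjusted p = 2.8e-05) and AT2TE23870 479 and 10 (7.69 ± 0.53, adjusted p = 1.71e-06). In embryo AT4TE18385 had 1406 Col reads and no C24 read. AT1TE42900 and AT1TE42905, consecutive identifiers, had 385 and 320 Col reads and no C24 read in embryo (adjusted p = 3.38e-16 and 9.62e-15), as had AT5TE39795 with 260 (adjusted p = 4.79e-13). In endosperm the first 2 were thinly covered and did have C24 reads, 7 at AT1TE42900 and 20 at AT1TE42905, with C24 as the mother.

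On the C24 side AT1TE58700 had 195 and 276 C24 reads in Col x C24 endosperm against 354 and 1266 in C24 x Col, with 1 Col read in all (Col over C24 log2 -10.63 ± 0.39, adjusted p = 7.82e-09), and 3547 C24 and no Col read in embryo. AT3TE60310 (477 C24 reads, at least 159-fold, adjusted p = 2.62e-06), AT3TE64435 (393 reads, at least 131-fold, adjusted p = 8.81e-06), AT4TE46305 (165 reads, at least 55.0-fold, adjusted p = 0.000385) and AT2TE26865 (97 reads, at least 32.3-fold, adjusted p = 0.00205) had no Col read in standard endosperm. DESeq2 did not call AT4TE46305 and AT2TE26865 (adjusted p = 0.0537 and 0.0816). The alleles of these loci were read from either parent. In CNS endosperm AT3TE60310 had 21 Col and 629 C24 reads, AT3TE64435 and AT4TE46305 had 1 Col read each, and AT2TE26865 had none. In standard embryo AT3TE60310 had 2 Col and 1101 C24 reads, AT3TE64435 had 1 Col read, and AT4TE46305 and AT2TE26865 had none. In standard endosperm AT2TE07460 had 1162 C24 reads and 1 Col read (-9.28 ± 0.48, adjusted p = 1.39e-07). In embryo AT1TE93275 (446 C24 reads and 1 Col read) and AT3TE63935 (160 and 0) were of the same kind, but in endosperm both had Col reads as well, with terms of -3.05 ± 0.37 (adjusted p = 9.58e-05) and -2.65 ± 0.37 (adjusted p = 0.000291).

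The last comparison set the directions of the standard cross against each other in total reads, which also reaches loci where a missing allele leaves the maternal term without an estimate. In endosperm 6 of 600 TE loci (1.00%) were called, all 6 higher in C24 x Col, against 0.150% of all 13340 features (0.0225% higher in Col x C24, 0.127% higher in C24 x Col), and 143 TE loci had an unadjusted p under 0.05. These 6 are named because they are all that were called, and were chosen after their values were seen. Median log2 differences of Col x C24 over C24 x Col were -0.51 over the TE loci and -0.07 over all features. The 0.150% is the background of the main fit, and no share over all features is given for the other fits. With the replicate number as block the count of called TE loci was 28 (8 higher in Col x C24 and 20 lower), and DESeq2 called 21. It was 1 without either C24 x Col endosperm library and without Col x C24 endosperm replicate 1, and 4 without its replicate 2. Leaving out an embryo library gave 20 (C24 x Col replicate 1), 13 (C24 x Col replicate 2), 10 (Col x C24 replicate 1) and 9 (Col x C24 replicate 2).

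AT1TE64810 was the locus that stayed called whichever library was left out. It had no Col read in standard endosperm, 11 and 16 C24 reads in Col x C24 against 411 and 996 in C24 x Col, or 7.72 and 6.30 against 198 and 214 CPM (log2 difference -4.89 ± 0.38, adjusted p = 0.000688). Doubling of the C24 dose through the mother alone would give a log2 difference of -1. In CNS endosperm it had 12 and 31 C24 reads with C24 as the father and 635 and 929 with C24 as the mother. Its standard endosperm reads were thus all of C24 and mostly from the cross with C24 as the mother. Without a Col read there, no library sets the maternal against the paternal allele. Parental origin therefore cannot be told apart from cross direction at this locus.

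The other 5 loci also had more reads with C24 as the mother. AT1TE77075 had Col to C24 reads of 0 to 2 and 0 to 1 in Col x C24 against 5 to 156 and 13 to 228 in C24 x Col (log2 difference -6.29 ± 0.83, adjusted p = 0.0221). AT3TE54330 had 1 and 8 reads in Col x C24 against 145 and 230, all C24, in C24 x Col (-4.77 ± 0.71, adjusted p = 0.0421). AT4TE56960 had Col to C24 reads of 12 to 3 and 14 to 4 in Col x C24 against 0 to 220 and 5 to 335 in C24 x Col (-3.36 ± 0.53, adjusted p = 0.0497), and was called maternal as well (3.35 ± 0.48, adjusted p = 0.000653). AT5TE33455 had 106 and 116 C24 reads in Col x C24 against 581 and 998 in C24 x Col, with 2 Col reads in all (-2.05 ± 0.32, adjusted p = 0.0408), beside 245 and 315 reads against 259 and 478 in embryo. AT5TE53755 kept both alleles, with 61 and 127 reads in Col x C24 against 351 and 888 in C24 x Col (-1.95 ± 0.31, adjusted p = 0.0421). Scaled to library totals alone, AT3TE54330 and AT4TE56960 missed the threshold (adjusted p = 0.0521 and 0.0547). In CNS endosperm, relative to nuclear allele reads, both Col(C24) x Col libraries lay above both libraries of the opposite direction at all 6 loci, which also held for 16.5% of all features and for 183 of the 600 TE loci tested.

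**Figure D5:**
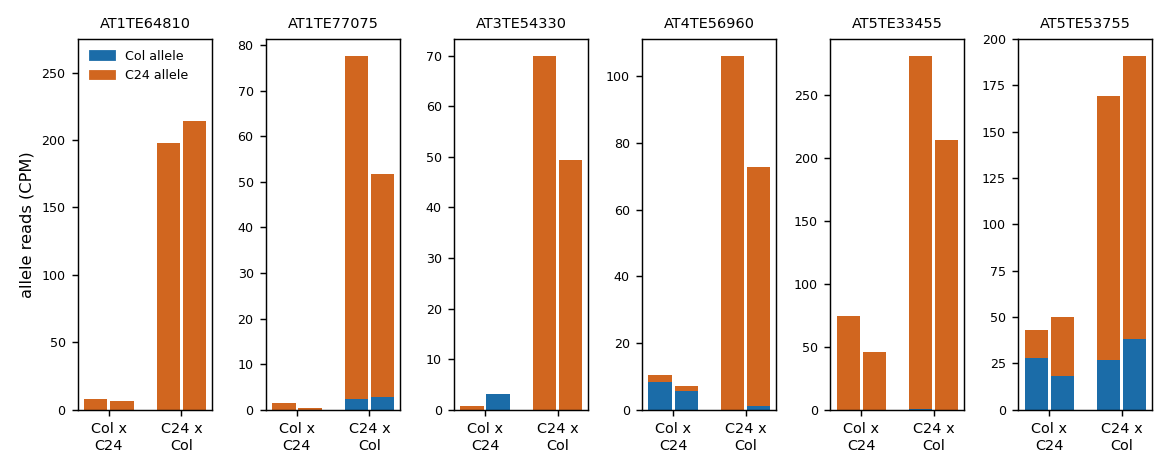
Scaled allele reads (vertical axes, CPM, each from 0 and on its own scale) in the 4 standard endosperm libraries for the 6 TE loci called between the directions of the cross. Each bar is a library, stacked by allele. C24 reads fill most of the taller C24 x Col bars, and AT1TE64810 rises from 7.72 and 6.30 CPM to 198 and 214 CPM.

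Genes that silence transposable elements were read from the same libraries, in a list of 28. The list also holds DNA demethylases, which remove methylation: DEMETER, ROS1, DML2 and DML3. Of 24 with enough allele reads 13 were higher in embryo, 1 was higher in endosperm and 10 were not called, beside 28.8% and 27.3% of all features higher in embryo and in endosperm. Higher in embryo were the maintenance methylation cofactor VIM1 (63.3 ± 24.2 CPM in endosperm and 511.5 ± 63.4 CPM in embryo; log2 difference -3.10 ± 0.20, adjusted p = 3.22e-07), the Argonaute AGO4 of RNA-directed DNA methylation (109 ± 13.1 and 509.6 ± 70.3 CPM; -2.23 ± 0.20, adjusted p = 3.66e-06), the polymerase V subunit NRPE1 (-1.81 ± 0.24, adjusted p = 7.87e-05) and the chromatin remodeller DDM1 (-1.77 ± 0.24, adjusted p = 8.64e-05). The methyltransferases MET1, CMT2, CMT3 and DRM2 were also in this group. So were the demethylases ROS1 (-1.40 ± 0.20, adjusted p = 0.000126) and DML2 (-0.65 ± 0.23, adjusted p = 0.0338), so the group is not made of silencing genes alone. NRPD1, a subunit of polymerase IV that starts small RNA production, was higher in endosperm (40.3 ± 8.29 and 13.6 ± 1.75 CPM; 1.56 ± 0.29, adjusted p = 0.000828). The list's median log2 difference was -0.77, beside -0.12 over all features.

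In parental origin 2 of the 19 genes tested in standard endosperm were called, both paternal, and 0 maternal, beside 2.04% of all features called paternal and 2.37% called maternal. VIM1 had 18.5% and 25% maternal reads in Col x C24 against 21.3% and 34.7% in C24 x Col (log2 difference -2.58 ± 0.26, adjusted p = 2.13e-05). The dicer-like gene DCL4 had 27.8% and 21.3%, and 21.9% and 17.6% (-2.85 ± 0.45, adjusted p = 0.00155). In every one of these libraries both genes were far under the 66.7% of the dose, and both differed between endosperm and embryo (adjusted p = 3.1e-07 and 0.0292). DEMETER itself was not called (0.01 ± 0.39, adjusted p = 1).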

How the data were processed

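Per the labels' protocols, RNA from laser-captured tissue was made into poly-A selected libraries. The authors deposited whole-number read counts per allele (reference, taken as Col, and the other, taken as C24) for 16 hybrid libraries, listing features with at least 1 read, and gene counts for 32 libraries, which were used only for tissue markers and hold no TE identifier. Trimmomatic, STAR, HTSeq, edgeR and TAIR10 are named per the submitters' processing notes, without roles. The allele-splitting step, the treatment of reads from repeated copies and the use of strand are not given in the sources used here. Near-identical elements and overlapping genes may share reads. Nuclear allele reads were 1444047 to 6243030 per library, and depth limits the precision of each share.

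Allele counts were fitted here with edgeR 4.0.16 in R 4.3.3 (quasi-likelihood) over all nuclear features with 10 or more reads in every library, with library as a block, allele and maternal terms and an offset for a 2:1 (endosperm) or 1:1 (embryo) dose. Totals used TMM and filterByExpr (minimum count 10). P-values were adjusted by Benjamini-Hochberg over genes and TE loci together, with 0.05 as the threshold. Alternatives were DESeq2 1.42.0, other minimums and offsets, library totals, a replicate block, and leaving out each library. Same-numbered libraries deviated together across crosses and tissues in all 6 pairs (correlations 0.183 to 0.477), but the labels do not say what they share. In each standard group replicate 1 also had fewer nuclear allele reads than replicate 2. The main fits had no term for the replicate number, which entered only as the alternative block. Scripts were tested on simulated data. Which parent is the mother, and the CNS notation, follow organelle and nuclear allele reads. Named loci were, by a rule, the 12 with most reads, called loci ranked by size of change (up to 12 per direction for parental origin, 8 for accession and tissue, 6 for embryo and tissue difference) and 3 on each side of the minimum. Members, lists and tests were chosen with earlier results of these data known. Folds against no read use a floor of 3 reads over the group. Between alleles they are ratios of reads, with no correction for dose.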

Additional observations from a re-analysis of the deposited data

Results flagged for a closer look

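The effect of parental origin differed between endosperm and embryo at 3 TE loci, by the test of the difference itself in edgeR with Benjamini-Hochberg adjustment. The maternal term in endosperm minus that in embryo was -2.10 on the log2 scale at AT2TE19930 (adjusted p = 2.5e-06), -2.04 at AT5TE81110 (adjusted p = 7.67e-05) and -1.23 at AT1TE88825 (adjusted p = 0.0488). The first 2 passed whichever of the 8 libraries was left out, and AT1TE88825 passed in 2 of these 8 fits.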

How the results depend on the processing

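Another minimum or filter, or a left-out library, also changes which loci are tested. The numbers tested and the shares over all features are not given for the settings below, so their counts cannot be read as shares. Counts of called TE loci changed as follows, with the range over fits that leave out a library given last. For parental origin in standard endosperm they were 22 with a minimum of 20 reads and 53 with none, and 8 to 77 when a library was left out. For accession they were 134 with no minimum and 38 to 141. In embryo, parental calls were 0 by DESeq2, 5 with no minimum and 0 to 2, and accession calls 41 by DESeq2 and 53 to 61. In CNS endosperm they were 42 by DESeq2, 40 with no minimum and 6 to 23. The tissue difference of the parental effect gave 7 with no minimum and 2 to 7, totals between tissues stayed at 371 to 430, and totals between cross directions 21 by DESeq2, 44 with no filter, 28 with the replicate block and 1 to 20. The replicate block also ended the CNS call of AT2TE24250 (adjusted p = 0.13) and changed no other call of a named locus but that of AT1TE88825. Without the 10 loci with most reads per library, a choice made after seeing the data, TE shares were 1.37% and 0.485% in standard endosperm and embryo and 1.29% and 0.461% in the CNS libraries. DESeq2 ended 14 calls of named loci (adjusted p 0.0511 to 0.424). Uncalled maternal terms changed sign without a library at AT2TE63800 (-0.104 to 0.063, highest without C24 x Col replicate 1) and AT1TE25675 (-0.305 to 0.071, highest without Col x C24 replicate 1). The cause of these changes was not tested. With 2 libraries per group and 10 reads as the minimum, small shifts at thinly covered loci were not detectable.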
